A study of Homo sapiens with 4 samples.

Results

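The 10 genes examined here encode fibulins, fibrillins, elastin and microfibril-associated glycoproteins, the protein parts of elastic fibres. They were taken by gene symbol from the 33538 genes listed in the deposited count files. The family was chosen by a measured value, because EFEMP1, a fibulin, was already known to be lower in shAPC than in shScr cells in these same libraries, and the question was how far its relatives shared that difference. Every shAPC to shScr difference given for the 10 genes is therefore a description with no test behind it.

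Elastic fibres are built on microfibrils, beaded filaments of fibrillin that cells secrete and assemble outside the cell. Elastin is laid down on the microfibrils with the help of the short fibulins and is then cross-linked by lysyl oxidases, while the microfibril-associated glycoproteins decorate the fibrillin filament. Fibrillins also bind the latent TGF-beta binding proteins and so hold TGF-beta in the matrix. Smooth muscle cells and fibroblasts are the best-known makers of these fibres. In the gut wall they lie mostly outside the epithelium.

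The cells were HCEC 1CT, an established line of human colonic epithelial cells immortalised with TERT and CDK4, which the labels call colonic epithelial progenitors. All 4 groups carried an integrated shRNA and were kept in puromycin after transduction. The shRNA was either scrambled (shScramble, here shScr) or directed against APC (shAPC), the tumour suppressor that marks beta-catenin for destruction. Cells were harvested 3 or 7 days after transduction, and each of the 4 combinations of shRNA and day is 1 droplet 3′ RNA library with no replicate. The labels call the virus retroviral and the study's methods call it lentiviral, and the labels give version v2 of the 10x Genomics kit where the methods give V3. No clone or culture is named beyond the line itself, so differences between cultures or runs and differences between shRNAs cannot be told apart.

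Each value below is a count of unique molecular identifiers (UMIs, distinct captured RNA molecules), summed over the cells of a library and scaled to that library's total (CPM). A barcode was taken as a cell when it had 200 or more genes, 500 or more UMIs and a mitochondrial share under 5%. Sets of 4 values are in the order shScr then shAPC at day 3, followed by the same pair at day 7. That left 788 to 2600 cells and 28451455 to 39797418 UMIs per library. The median cell had 35109 UMIs in shScr at day 3, 49686 in shAPC at day 3, 1330 in shScr at day 7 and 21030 in shAPC at day 7. In shScr at day 7, 1402 of 2600 cells held fewer than 2000 UMIs, although these gave only 3.36% of that library's UMIs. The mitochondrial limit and the other limits removed 51.3% of the barcodes of shAPC at day 7 against 24.1% to 28.8% elsewhere. APC itself was at 16.1 and 5.52 CPM in shScr and shAPC at day 3 and at 19.1 and 6.61 CPM at day 7. From 1 to 19 kept barcodes were shared by each pair of libraries. The files of the shScr libraries name Cell Ranger 3.0.2 and those of the shAPC libraries 3.0.0, so the counting version and the shRNA cannot be told apart.

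The labelled cell type was checked against marker genes. The epithelial markers EPCAM (at most 2 UMIs in any library), CDH1 (at most 1), KRT20 and CDX2 (0 in all) were at or near 0. Only KRT8, KRT18, KRT19 and CLDN7 of 9 colonic epithelial markers exceeded 3 UMIs, and the list summed to 25.0 to 49.3 CPM. All 8 fibroblast and mesenchymal markers were detected in every library, at a summed 5769 to 7743 CPM, and smooth muscle markers summed to 291 to 311 CPM. Nearly all of the smooth muscle sum came from TAGLN (218 to 273 CPM) and ACTA2 (37.1 to 71.8 CPM). The other markers of that list were sparse, with 1 to 8 UMIs of MYH11, 2 to 29 of DES and 5 to 62 of CNN1 per library. The elastic fibre genes were thus measured in a culture whose epithelial defining markers were nearly absent. The mesenchymal sum was lower in shScr than in shAPC at day 7 (5769 against 6941 CPM) and close at day 3 (7743 against 7608 CPM). Its genes did not move together. At day 7 COL1A1 (927 against 1485 CPM), COL1A2 and COL3A1 were lower in shScr, while VIM and PDGFRB were close. CDH2 (6.4 against 3.7 CPM), PDGFRA (24.7 against 15.2) and THY1 (247 against 187) were higher in shScr. At day 3 CDH2, PDGFRA, PDGFRB and THY1 were higher in shScr and the collagens lower. The part of the sum in the results below was not tested.

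The fibrillins differed from each other, with FBN2 lower in shAPC and FBN1 close to level in summed counts, and the promoters of this pair are shown. Each stretch covers 250 bases before and 50 bases after a transcription start, taken from RefSeq on GRCh38.p14. RefSeq entries were found for 7 of the 10 genes; EFEMP1, ELN and MFAP5 had none in the table used here. Capitals mark a match to GGAATG, the core bound by TEAD factors, on either strand.

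FBN2 (chr5:128538196-128538495, minus strand): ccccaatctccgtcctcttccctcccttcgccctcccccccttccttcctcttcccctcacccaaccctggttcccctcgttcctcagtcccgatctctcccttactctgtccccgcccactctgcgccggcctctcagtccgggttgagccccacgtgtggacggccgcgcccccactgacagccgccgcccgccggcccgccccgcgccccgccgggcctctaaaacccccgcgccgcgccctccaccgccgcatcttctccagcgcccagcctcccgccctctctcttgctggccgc

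FBN1 (chr15:48644921-48645220, minus strand): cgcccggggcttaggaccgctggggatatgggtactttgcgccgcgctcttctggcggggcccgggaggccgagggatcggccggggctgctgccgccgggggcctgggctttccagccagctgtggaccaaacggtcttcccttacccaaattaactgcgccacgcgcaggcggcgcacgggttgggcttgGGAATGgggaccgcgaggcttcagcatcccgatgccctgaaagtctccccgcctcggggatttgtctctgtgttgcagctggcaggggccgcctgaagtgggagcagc

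Both promoters are rich in G and C, at 72.7% for FBN2 and 68.3% for FBN1 against a median of 58.7% over 35116 RefSeq promoters of the same length. They hold 30 and 26 CpG dinucleotides, where the median promoter holds 14. Short motifs were searched on both strands. The TATA box, searched as TATAAA, was found in neither promoter and in 11.5% of all promoters. The motif of the TCF and LEF factors, partners of beta-catenin, was searched as ATCAAAG and was likewise in neither, against 2.62% of all. The AP-1 motif, TGANTCA, was in neither, against 7.71% of all. The TEAD motif, GGAATG, occurred 1 time in the FBN1 stretch and not in that of FBN2, against 14.0% of all promoters. These motifs do not contain each other. The RefSeq starts of FBN2 and FBN1 used here both lie inside the gene spans of the annotation quoted below. A match describes the letters of the window and no more.

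Among the short fibulins, EFEMP1 (fibulin-3, chr2:55865967-55924139, minus strand) was the gene the family was chosen for. It was at 28.5 CPM in shScr and 11.5 CPM in shAPC at day 3, from 1136 and 402 UMIs. At day 7 it was at 35.3 CPM in shScr and 6.71 CPM in shAPC, from 1101 and 191 UMIs. Both shAPC libraries lay below both shScr libraries, and the shAPC library of day 7 was the lowest of the 4. The log2 ratio of shAPC to shScr was -1.31 at day 3 (95% interval -1.48 to -1.15) and -2.39 at day 7 (-2.62 to -2.17). These intervals are exact conditional binomial ones and, like all intervals here, cover counting error only, because no library was repeated. Among 7008 genes with a mean of at least 10 CPM over the 4 libraries, this was the 14th lowest ratio at day 3 and the third lowest at day 7. Between the days EFEMP1 was 0.30 higher on the log2 scale in shScr (0.18 to 0.43) and 0.78 lower in shAPC, a log2 ratio of -0.78 (-1.03 to -0.52). The wider gap at day 7 thus went with a higher level in shScr and a lower one in shAPC, where the median of all genes was itself -0.32 between the days.

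FBLN5 (fibulin-5, chr14:91869411-91947987, minus strand), which tethers elastin to cells and microfibrils, was the other short fibulin below shScr at both days. It was at 176 CPM in shScr and 144 CPM in shAPC at day 3, and at 194 and 127 CPM at day 7. The libraries kept the order of EFEMP1, with a smaller gap. The log2 ratio was -0.29 at day 3 (-0.34 to -0.24) and -0.61 at day 7 (-0.67 to -0.55).

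EFEMP2 (fibulin-4, chr11:65866441-65873592, minus strand), which brings lysyl oxidase to elastin, was at 124, 121, 122 and 110 CPM in the 4 libraries. Its levels stayed within a narrow band, and its log2 ratio was -0.04 at day 3 (-0.10 to 0.02) and -0.15 at day 7 (-0.22 to -0.08). Relative to the median of all genes its ratios were -0.32 and -0.08. In CPM this short fibulin, unlike EFEMP1, was close to level, and the intervals of the pair were apart at both days.

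Of the long fibulins, FBLN1 was close to level and FBLN2 was higher in shAPC. FBLN1 (fibulin-1, chr22:45502238-45601135, plus strand), a component of basement membranes and elastic fibres, was at 22.4 CPM in shScr and 29.4 CPM in shAPC at day 3, and at 23.9 and 22.2 CPM at day 7. Only the shAPC library of day 3 stood above the others. Its log2 ratio was 0.39 at day 3 (0.26 to 0.52), of which 0.10 remained after the median of all genes was subtracted, and -0.11 at day 7 (-0.26 to 0.05). FBLN2 (fibulin-2, chr3:13549125-13638422, plus strand) was rare, with UMI numbers of 8, 36, 8 and 26 in the 4 libraries. It was the only one of the 10 genes with a higher level in shAPC at both days, with log2 ratios of 2.36 (1.23 to 3.67) and 1.83 (0.65 to 3.19). HBB, a blood gene, also had more UMIs in shAPC at day 3 (21 against 3) but not at day 7 (3 against 6). Any link to the FBLN2 values was not tested.

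FBN2 (fibrillin-2, chr5:128257909-128659185, minus strand), the fibrillin prominent in developing tissue, was at 413 CPM in shScr and 232 CPM in shAPC at day 3. At day 7 it was at 352 CPM in shScr and 161 CPM in shAPC, from 10984 and 4584 UMIs. As with EFEMP1, both shAPC libraries lay below both shScr libraries. The log2 ratio was -0.83 at day 3 (-0.87 to -0.80) and -1.13 at day 7 (-1.18 to -1.08), the 45th and 70th lowest of the 7008 genes. Unlike EFEMP1, FBN2 was lower at day 7 than at day 3 with both shRNAs, by log2 ratios of -0.23 in shScr and -0.52 in shAPC, which TMM scaling moved to -0.29 and -0.22.

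FBN1 (fibrillin-1, chr15:48408313-48645721, minus strand), the main microfibril protein of adult tissue and the gene mutated in Marfan syndrome, was at 82.1, 81.8, 86.6 and 81.5 CPM in the 4 libraries. All 4 values were close together. Its log2 ratio was -0.01 at day 3 (-0.08 to 0.07) and -0.09 at day 7 (-0.17 to -0.01). Relative to the median of all genes its ratios were -0.29 and -0.02. Each fibrillin gene has 1 annotated gene on its own strand within its span, and reads from the pairs were not separated here.

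ELN (elastin, chr7:74027789-74069907, plus strand) was hardly detected, with 4, 2, 26 and 12 UMIs in the 4 libraries. In shAPC at day 7, 11 of the 12 UMIs came from 1 cell. The log2 ratios of -0.81 (-4.28 to 1.99) and -0.98 (-2.10 to 0.06) both had intervals that held 0, so no difference was detectable at this depth. These cells thus held RNA for microfibril proteins with little RNA for elastin itself.

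Both microfibril-associated glycoproteins were sparse. MFAP5 (chr12:8637346-8662888, minus strand) was at 5.70 CPM in shScr and 3.66 CPM in shAPC at day 3, from 227 and 128 UMIs. At day 7 it was at 12.7 CPM in shScr and 3.30 CPM in shAPC, from 398 and 94 UMIs. In these sums the shScr library of day 7 stood well above the other 3, so the log2 ratio went from -0.64 (-0.96 to -0.32) to -1.95 (-2.29 to -1.62) mainly with a higher level in shScr: between the days it differed by 1.16 in shScr (0.92 to 1.40) and by -0.15 in shAPC (-0.55 to 0.25). The step in shScr lay within 0.92 to 1.40 under 9 of 11 alternatives and ran from 0.12 to 1.79 over all of them. Drawn down to 5000 UMIs, shScr cells held a mean of 0.0260 MFAP5 UMIs at day 3 and 0.0608 at day 7, from 21 and 63 UMIs. The lowest step, 0.12, was in cells of at least 2000 UMIs, each drawn down to that number. It rested on 18 UMIs at day 3 and 26 at day 7. At day 7 the ratio of shAPC to shScr in such cells was -1.56. MFAP2 (chr1:16974502-16980632, minus strand) had 79 and 52 UMIs at day 3 and 69 and 33 at day 7. Its log2 ratio was -0.42 at day 3 (-0.95 to 0.11) and -0.93 at day 7 (-1.57 to -0.31).

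**Figure D1:**
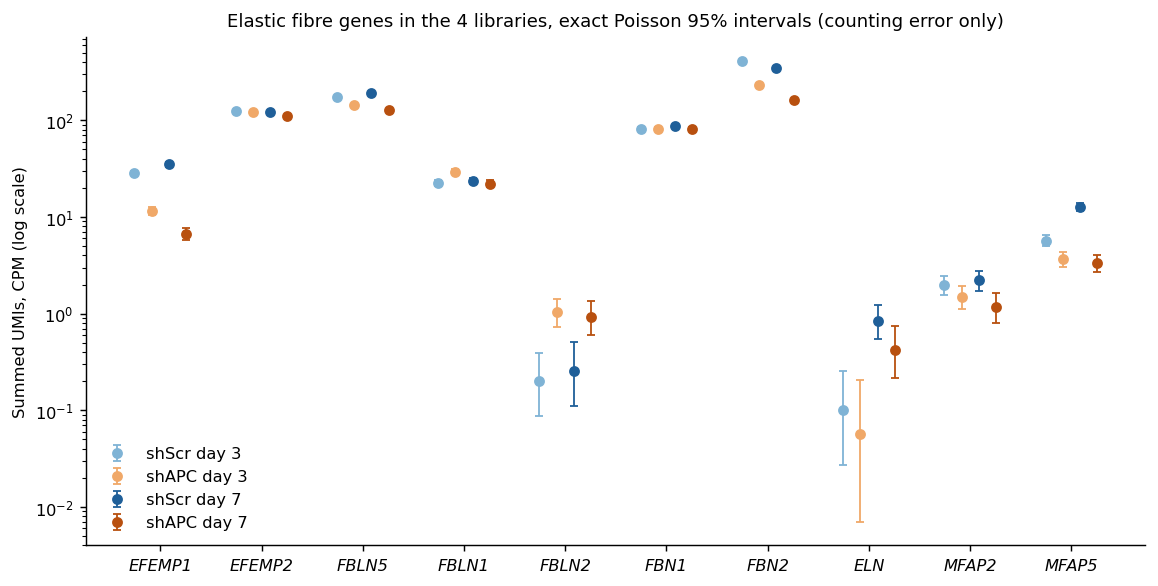
Level of each of the 10 genes in the 4 libraries, as CPM on a log axis. Points are the single libraries and bars exact Poisson 95% intervals. EFEMP1, FBN2, MFAP5 and, with a smaller gap, FBLN5 separate by shRNA with shAPC lower, and FBLN2 separates with shAPC higher. FBN1 and EFEMP2 do not separate, and ELN and FBLN2 lie at or near 1 CPM or below.

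Over the family, 1 of 10 genes (EFEMP1) was at least 2-fold lower in shAPC at day 3, and 3 of 10 (EFEMP1, FBN2 and MFAP5) at day 7. Of all genes with more than 3 UMIs in either library, 2.21% passed that limit at day 3 and 4.34% at day 7. Among the 7008 genes with a mean of at least 10 CPM the shares were 0.400% and 1.56%. This level was reached by 6 of the 10 genes (EFEMP1, EFEMP2, FBLN5, FBLN1, FBN1 and FBN2), of which 1 passed the limit at day 3 and 2 at day 7. The interval lay below 0 for 4 of 10 genes at day 3 and 7 of 10 at day 7, against 7.56% and 23.4% of all genes. Of the 6 genes at the higher level it was 3 and 5, against 13.3% and 41.2%. At both days it lay below 0 for EFEMP1, FBLN5, FBN2 and MFAP5, against 5.31% of all genes and 9.76% of those at the higher level. In all 4 the ratio of day 7 lay below that of day 3 with intervals apart, against 1.98% and 4.32%. For FBN2 and FBLN5 this rested on the scaling: with TMM the ratios of days 3 and 7 were -1.21 and -1.14 for FBN2 and -0.67 and -0.63 for FBLN5, while EFEMP1 (-1.69 and -2.41) and MFAP5 (-1.02 and -1.96) were still farther below 0 at day 7. The rule that chose the family used these contrasts, so nothing is read from these shares.

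The median log2 ratio of the 10 genes was -0.35 at day 3 and -0.77 at day 7, beside 0.29 and -0.07 for all genes tested. The positive median at day 3 means that most genes took a higher share of UMIs in shAPC. TMM scaling moved all ratios of day 3 by -0.38 and those of day 7 by -0.01. Under it FBN2, MFAP5 and the sparse ELN also passed the 2-fold limit at day 3 and FBLN1 was at about the level of shScr. EFEMP2, close to level in CPM, was at -0.42 at day 3 under TMM.

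**Figure D2:**
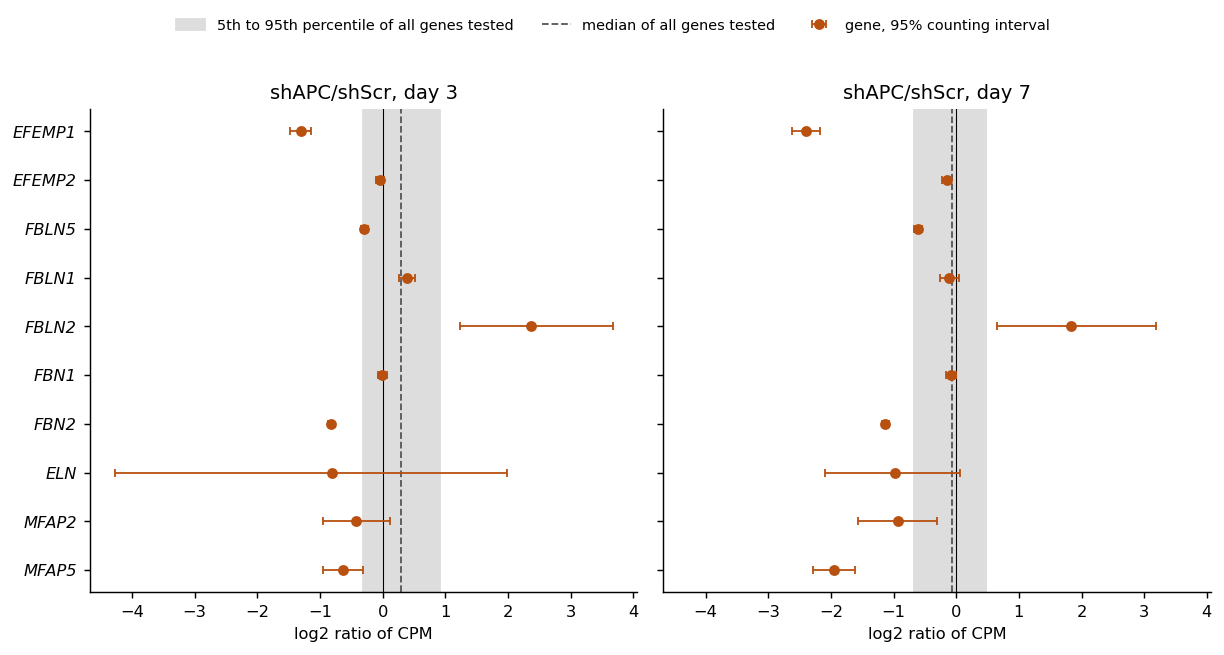
The log2 ratio of shAPC to shScr for each gene at day 3 (left) and day 7 (right). Points are ratios of CPM with 95% counting intervals, the grey band spans the 5th to 95th percentile of the 7008 genes tested and the dashed line is their median. EFEMP1 and FBN2 lie left of the band at both days, while FBN1, EFEMP2, FBLN1 and FBLN5 lie inside it. The points of the sparser MFAP5, MFAP2 and ELN also lie left of it, with intervals of MFAP2 and ELN that reach into it.

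Summed counts cannot tell fewer cells with a transcript from less of it in each cell, and for a sparse gene neither can shares of cells. An EFEMP1 UMI was found in 39.5%, 27.9%, 22.5% and 9.74% of the cells of the 4 libraries, at the unequal depths given above. After each cell was thinned to 2000 UMIs, which left out 115 to 1402 shallower cells per library, the shares were 4.34% (exact 95% interval 3.10 to 5.88) and 2.97% (1.82 to 4.55) at day 3. At day 7 they were 6.18% (4.88 to 7.69) and 1.20% (0.638 to 2.04). At this depth the intervals were apart at day 7 and overlapped at day 3. The shares nearly equal the mean EFEMP1 UMIs per cell, 0.0456 and 0.0297 at day 3 and 0.0659 and 0.0129 at day 7. They thus restate the level and do not show that fewer cells expressed the gene. Thinned to 5000 UMIs per cell, which left out 172 to 1564 cells per library, the shares were 10.75% (8.70 to 13.1) and 3.73% (2.38 to 5.55) at day 3, and 14.1% (12.03 to 16.4) and 2.82% (1.88 to 4.05) at day 7, with intervals apart at both days. FBN2 had thinned shares of 46.8% (43.5 to 50.2) in shScr and 30.9% (27.4 to 34.6) in shAPC at day 3, and 42.0% (39.2 to 44.8) and 22.4% (19.9 to 25.0) at day 7. Its shares were lower in shAPC at both days with intervals apart.

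For FBLN5 the thinned shares were 25.4%, 24.5%, 26.5% and 19.8% in the 4 libraries, and for FBN1 they were 14.2%, 14.6%, 15.0% and 13.8%. The shAPC library of day 7 was the lowest in each case. For FBLN5 its interval (17.45 to 22.27) was apart from that of shScr at day 7 (24.06 to 29.14). For FBN1 the intervals of all 4 libraries overlapped. MFAP5 was seen in 1.45% and 0.743% of thinned cells at day 3 and in 2.17% and 0.644% at day 7.

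The culture holds no cell type that should lack these genes, so stray RNA of these genes from other cells of the culture could not be measured. Genes of absent cell types show only stray RNA from outside the culture and set no floor for the family. Without thinning, ALB, PTPRC and INS each had a UMI in at most 0.254% of cells and HBB in 0.135% to 2.16%. The shares of ELN (0.135% to 0.500%) were in that range, and no expression is read from the shares alone. Its UMIs were unevenly spread at day 7, however, with 5 of the 13 cells in shScr holding 2 or more and 1 cell in shAPC holding 11. FBLN2 was seen in 0.717% and 3.81% of cells at day 3 and in 0.269% and 1.69% at day 7, and its interval in shAPC at day 3 (2.58 to 5.39) overlapped that of HBB (1.26 to 3.43). FBLN2 and HBB were both most often seen in shAPC at day 3.

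The libraries differ in depth, mitochondrial share and cell cycle, so the ratios were also taken within groups of cells. The EFEMP1 ratio was below 0 in each of 4 depth ranges, in the barcodes removed for their mitochondrial share, and in cells called G1 and cells called S or G2M. At day 3 the interval held 0 in the 3 ranges under 30000 UMIs, where cells were few. In cells of 30000 UMIs or more its log2 ratio was -1.36 at day 3 (-1.53 to -1.19) and -2.45 at day 7 (-2.79 to -2.13). In the removed barcodes it was -1.60 (-2.05 to -1.15) and -2.98 (-3.27 to -2.70). These ratios were -1.52 (-7.08 to 1.64) under 2000 UMIs, from 1 and 5 UMIs, -1.09 (-2.72 to 0.32) from 2000 to under 10000, and -0.57 (-1.77 to 0.45) from 10000 to under 30000, from 9 UMIs in 37 shAPC cells. In cells called S or G2M the ratio was -0.97 (-1.27 to -0.67) and -1.80 (-2.20 to -1.42), against -1.46 (-1.66 to -1.25) and -2.62 (-2.92 to -2.33) in G1. Taken apart, cells called S were at -0.93 and -1.63 and cells called G2M at -1.05 and -2.42 (-3.29 to -1.64), the last close to G1. In shAPC at day 7, 17 of the 191 EFEMP1 UMIs came from 1 cell.

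FBN2 was lower in shAPC in the same groups of cells at both days, from -0.58 in S or G2M cells at day 3 to -2.70 in cells of 2000 to under 10000 UMIs at day 7. Its interval held 0 only in cells under 2000 UMIs at day 3 (-0.63, interval -1.43 to 0.11). For MFAP5, which had no ratio in cells under 2000 UMIs at day 3, every ratio in these groups was below 0, but at day 3 the interval held 0 in S or G2M cells (-0.24, interval -0.77 to 0.27) and from 10000 to under 30000 UMIs (-1.18, interval -4.32 to 0.86). Taken apart at day 3, MFAP5 in G2M cells was at 0.07 (-0.65 to 0.79), from 35 and 35 UMIs, and FBN2 in S cells at -0.46. With S and G2M cells together, FBLN5 at day 3 was the exception among the 4 genes, at 0.08 (-0.02 to 0.18). Its S cells were at 0.24 (0.11 to 0.37) and its G2M cells at -0.14 (-0.29 to 0.01). FBN1, close to level in the sums, was lower in shAPC from 2000 to under 10000 UMIs at both days (-1.76, interval -3.33 to -0.46, and -1.03, interval -1.75 to -0.36) and from 10000 to under 30000 UMIs at day 3 (-0.78, interval -1.35 to -0.25). Phase was called from gene scores on cells thinned to 2000 UMIs, and 62.0% to 68.6% of cells were called G1.

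**Figure D3:**
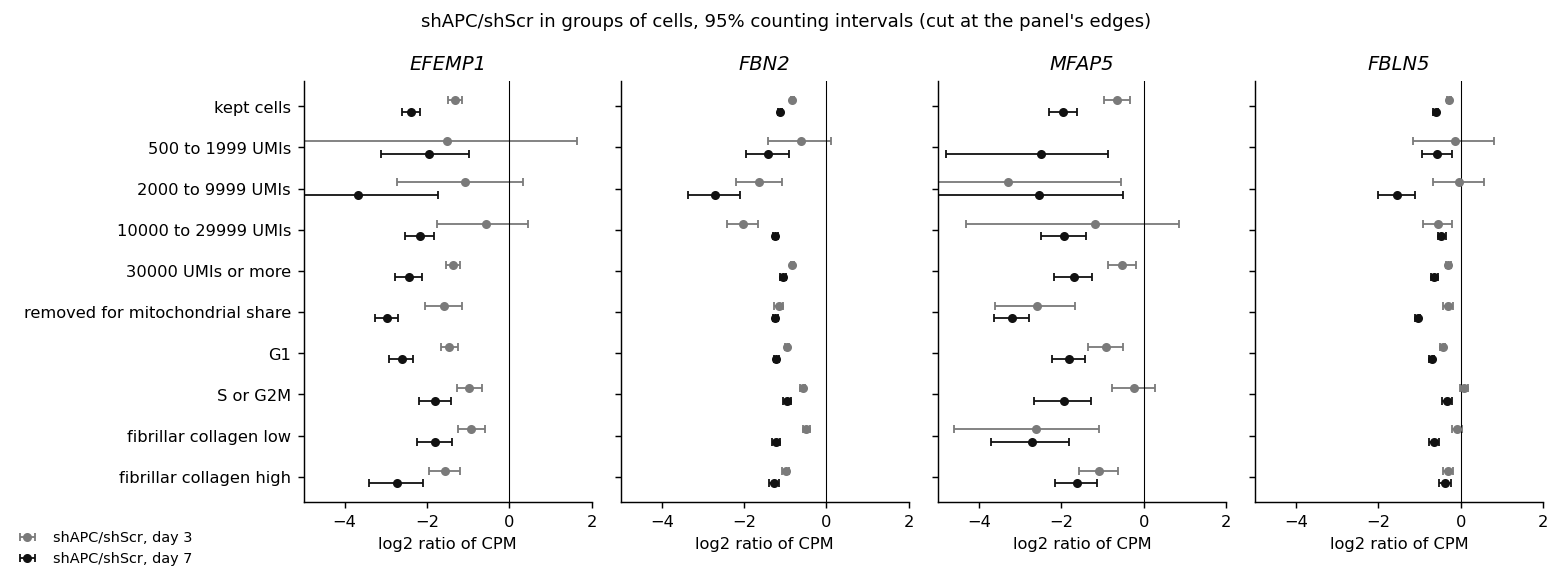
The log2 ratio of shAPC to shScr of EFEMP1, FBN2, MFAP5 and FBLN5 in groups of cells, at day 3 (grey) and day 7 (black), with 95% counting intervals that run on beyond the left edge where they reach it. For EFEMP1 and FBN2 every point lies left of 0, with wide intervals where cells are few.

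Depth set apart some values within a library. In shScr at day 7, EFEMP1 was at 101 CPM (82.6 to 122) in cells under 2000 UMIs and at 32.9 CPM (30.3 to 35.7) in cells of 30000 UMIs or more. MFAP5 in the same cells was at 48.6 CPM (36.2 to 63.9) and 11.1 CPM (9.55 to 12.7). In shAPC at day 7, EFEMP1 was likewise higher in the shallow cells, at 26.0 CPM (11.9 to 49.3) against 6.01 (4.84 to 7.39). At day 3 the shallow cells held at most 5 UMIs of EFEMP1, too few to compare. The ratio of shallow to deep cells was above 0 in all 4 libraries for EFEMP2 and FBLN1, as for 24.8% of the genes tested, and below 0 for FBN2, as for 16.3%. At day 3 the intervals of EFEMP2 and FBLN1 held 0 in both libraries, and that of FBN2 in shAPC.

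FBLN1 was higher in cells called S or G2M than in cells called G1 in every library. It was at 32.7 CPM in S or G2M cells and 18.4 CPM in G1 cells of shScr at day 3, at 37.2 and 25.5 CPM in shAPC at day 3, at 29.1 and 19.2 CPM in shScr at day 7, and at 26.1 and 19.7 CPM in shAPC at day 7. The log2 ratio of S or G2M to G1 cells was 0.83, 0.54, 0.60 and 0.40 in that order, with every interval above 0. Of the genes tested, 37.8% were higher in S or G2M cells in all 4 libraries, so a gene with this direction is common. FBLN5 was lower in S or G2M cells in 3 libraries (-0.32, -0.65 and -0.27) and higher in shAPC at day 3 (0.20), with no interval holding 0. EFEMP1 went both ways, lower in S or G2M cells of both shScr libraries (-0.26 and -0.25) and higher in those of shAPC at day 7 (0.57, interval 0.11 to 1.01).

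Fibrillar collagen was used to order the cells within each library, because elastic fibre genes are typically active in matrix-making cells. Cells of at least 5000 UMIs were thinned to that depth and ranked by their UMIs of COL1A1, COL1A2 and COL3A1, and the highest quartile was set against the lowest. The limits were 2 to 4 UMIs for the low and 9 to 17 for the high cells, and 109 to 309 cells per library lay within 1 UMI of the low limit and 34 to 121 within 1 UMI of the high one, so the groups are ranges of a graded level. The high cells had a median of 15 to 30 such UMIs and the low cells 1 to 2.

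FBN1 and MFAP5 were higher in collagen-high cells of every library. FBN1 was at 112 CPM in high and 55.4 CPM in low cells of shScr at day 3, at 124 and 45.8 CPM in shAPC at day 3, at 122 and 56.2 CPM in shScr at day 7, and at 138 and 41.1 CPM in shAPC at day 7. Its log2 ratio of high to low cells was 1.02, 1.44, 1.12 and 1.74 in that order. The step was wider in shAPC than in shScr at each day, over unlike ranges of collagen (median UMIs of 2 and 20 against 2 and 25 at day 3, and of 1 and 15 against 2 and 30 at day 7), with intervals apart (1.27 to 1.61 against 0.86 to 1.18 at day 3, and 1.55 to 1.94 against 0.95 to 1.30 at day 7). Between shRNAs, FBN1 was lower in shAPC in collagen-low cells (log2 ratios -0.27 and -0.45 at days 3 and 7) and higher in collagen-high cells (0.15 and 0.17), with no interval holding 0. MFAP5 had log2 ratios of 2.28, 3.80, 1.12 and 2.19, the second of them from 56 and 4 UMIs. MFAP2 had 2.10, 1.20, 0.96 and 1.73, FBLN1 0.32 to 0.86 and EFEMP2 0.26 to 0.39, with all intervals above 0.

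EFEMP1 did not follow the collagens. Its log2 ratio of high to low cells was 0.01 in shScr at day 3 (-0.26 to 0.28), -0.63 in shAPC at day 3 (-1.06 to -0.21), -0.19 in shScr at day 7 (-0.49 to 0.10) and -1.10 in shAPC at day 7 (-1.84 to -0.40). It was level in both shScr libraries and lower in the collagen-high cells of both shAPC libraries. FBLN5 was lower in collagen-high cells of all 4 libraries (-0.13, -0.36, -0.46 and -0.21), and FBN2 was between -0.20 and 0.29. In all, 6 of the 10 genes were higher and 1 lower in collagen-high cells of all 4 libraries. The 6 include FBLN2, whose ratios in shScr rested on 4 against 1 UMIs and 6 against 1 and had intervals that held 0. Among the 6 genes with a mean of at least 10 CPM it was 3 and 1, against 23.0% and 22.9% of the genes tested. Even so, EFEMP1 was lower in shAPC than in shScr both in collagen-low cells (-0.93 and -1.81 at days 3 and 7) and in collagen-high cells (-1.57 and -2.72).

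**Figure D4:**
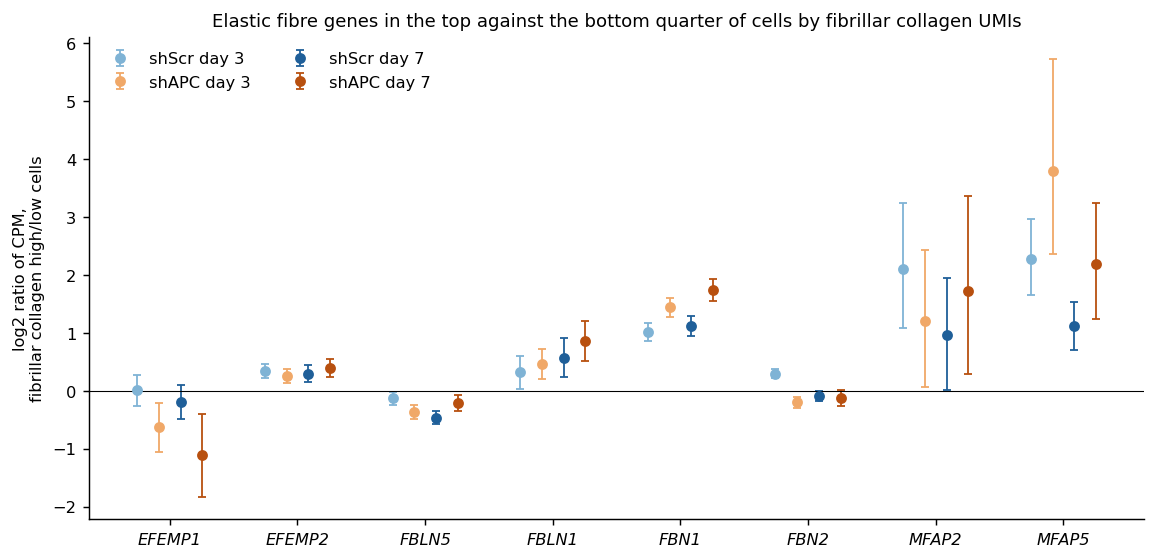
The log2 ratio of CPM in the highest against the lowest quartile of cells by fibrillar collagen UMIs, for 8 of the genes in each of the 4 libraries, with 95% counting intervals. FBN1, MFAP2 and MFAP5 lie above 0 in each library, FBLN5 lies below it, and EFEMP1 lies below it in the shAPC libraries.

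Cells with an EFEMP1 UMI at 5000 UMIs per cell were set against cells without one. FBLN5 was higher in them in each library (log2 ratios 0.35, 0.59, 0.58 and 0.59 in the 4 libraries), and so was FBN2 (0.23, 0.85, 0.45 and 0.47), with every interval above 0. FBN1 differed little (0.11, 0.29, 0.14 and -0.05). The cells with an EFEMP1 UMI numbered 87, 23, 146 and 28, and 8.39% of the genes tested were higher in them in all 4 libraries. Including EFEMP2 and FBLN1, 4 of the other genes of the family were higher in them in all 4 libraries, though with some intervals that held 0 for EFEMP2 and FBLN1. MFAP5 went both ways or had no UMI in the cells with EFEMP1.

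Genes outside the family were ranked by how like EFEMP1 their levels over the 4 libraries were. The measure was the distance between log2(CPM + 1) profiles, each centred on its own mean. Genes of the family were left out of this ranking of the 7008 genes. The nearest were CD9 (a tetraspanin of the cell surface, distance 0.276), SLC7A2 (a transporter of cationic amino acids, 0.341), SOD3 (the extracellular superoxide dismutase, 0.374), IL18 (a cytokine, 0.420) and OXTR (the oxytocin receptor, 0.424). CD9 was at 48.3, 17.5, 51.8 and 13.2 CPM in the 4 libraries. SOD3, the one secreted enzyme of the matrix among them, was at 15.9, 7.50, 28.8 and 4.53 CPM. Within the family the nearest were FBN2 at 0.856 and MFAP5 at 0.922, and the farthest was FBLN2 at 2.46. The distance uses 4 libraries and says nothing of shared control.

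The lysyl oxidases, which cross-link elastin and collagen, were counted next, with the genes of each related list that had a mean of at least 10 CPM. LOX was at 534 CPM in shScr and 384 CPM in shAPC at day 3, and at 522 and 376 CPM at day 7, with log2 ratios of -0.48 (-0.51 to -0.44) and -0.47 (-0.51 to -0.44). LOX was lower in both shAPC libraries. Relative to the median of all genes its ratios were -0.76 and -0.41. LOXL2 was at 0.14 and 0.30, and LOXL1 went from -0.40 at day 3 to 0.30 at day 7. The interval lay below 0 for 2 of the 3 members at that level at day 3 (LOX and LOXL1), against 13.3% of all genes tested, and for 1 at day 7, against 41.2%, with a list median of -0.40 and then 0.30.

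Of 7 genes of the latent TGF-beta complex, 5 were detected at that level, with medians of 0.12 and -0.20. The lowest were LTBP2, a binding protein that competes for fibrillin, at -0.63 at day 3, and TGFB1, the growth factor itself, at -0.29 at day 7. LTBP4, which works with FBLN5 in elastic fibre assembly, was the highest at both days (0.24 and 0.88). TGF-beta responsive genes had medians of -0.08 and -0.25 over 4 genes at that level. SKIL, a repressor of the pathway, was the lowest at day 3 (-0.28), CTGF, a matrix-bound growth regulator, was the lowest at day 7 (-0.40), and TGFBI, a secreted adhesion protein, was the highest at both (0.54 and 0.97).

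Only 1 of 14 microfibril accessory genes was detected at that level, EMILIN1, an elastic fibre glycoprotein, at 0.23 and 0.42. MFAP4, a microfibril-associated glycoprotein of this list under 10 CPM, was picked out after its values were seen: it had 176 and 231 UMIs at day 3 (0.58, interval 0.29 to 0.87) and 173 and 473 at day 7 (1.59, interval 1.33 to 1.85), higher in shAPC at both. Among the other matrix partners, 7 of 11 were detected, with medians of 0.25 and 0.10. SPARC, a collagen-binding secreted protein, was the lowest (-0.63 and -0.30) and DCN, the small proteoglycan decorin, the highest (0.75 and 0.42). FN1 (fibronectin), which microfibrils need for assembly, was at -0.17 and -0.16. TIMP3, a protease inhibitor that binds EFEMP1, was under 10 CPM, with 132 and 140 UMIs at day 3 (0.27, interval -0.08 to 0.63) and 57 and 31 at day 7 (-0.74, interval -1.42 to -0.09).

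Enzymes that can cut elastin or microfibrils went in both directions. CTSK, a cathepsin that degrades elastin and collagen, was the lowest at both days (-0.37 and -1.20). CTSL, another cathepsin, was the highest at day 3 (0.41), and MMP2, a gelatinase, at day 7 (1.06, interval 0.92 to 1.19). The fibrillar collagens stood opposite to EFEMP1, with medians of 0.36 at day 3 and 1.03 at day 7 over the 5 genes at that level. COL3A1 was the highest at both days (0.55 and 1.33), and the lowest were COL1A1 at day 3 (0.07) and COL5A2 at day 7 (0.05, interval -0.04 to 0.15). At day 7 the interval lay above 0 for 4 of these 5 genes, against 24.5% of all genes tested, and at day 3 for all 5, against 69.6%. The TMM shift of -0.38 would put COL1A1, COL1A2 and COL5A2 below 0 at day 3.

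**Figure D5:**
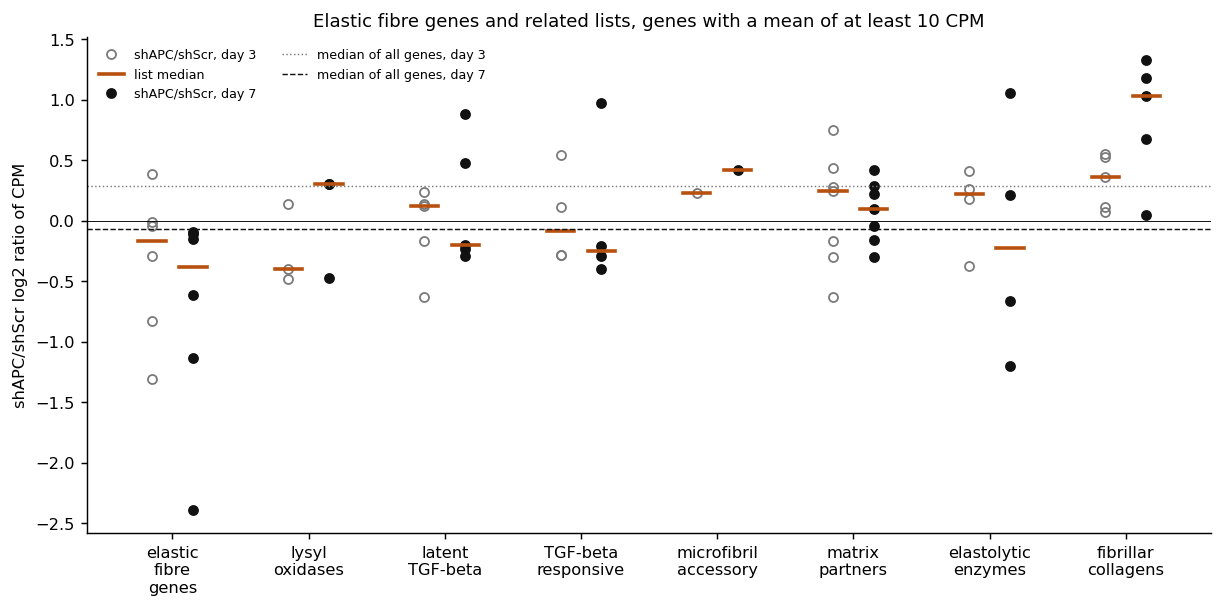
The log2 ratio of shAPC to shScr for the genes of each list with a mean of at least 10 CPM, at day 3 (open circles) and day 7 (filled circles), with list medians as bars and the medians of all genes tested as dotted and dashed lines. The fibrillar collagens reach 1.33 at day 7, while EFEMP1 is the lowest point of any list at both days.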

How the data were processed

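The authors aligned the reads to GRCh38 with STAR inside Cell Ranger and deposited raw UMI counts per gene and called cell barcode, one matrix per library. Per the file headers the matrices came from Cell Ranger 3.0.2 (shScr) and 3.0.0 (shAPC). The cell numbers that the study's supplement credits to Cell Ranger equal the numbers of deposited barcodes. The settings of that call and the annotation used are not given in the sources used here. The study's later TMM, ComBat and imputation steps were not applied.

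UMIs were summed over barcodes with at least 200 genes, 500 UMIs and under 5% mitochondrial UMIs. Doublets were neither called nor removed, and an alternative left out the 5% of cells with the most UMIs. Ratios of CPM have exact conditional binomial 95% intervals, CPM exact Poisson ones and shares Clopper-Pearson ones. They cover counting error only, so no p-value is given between single libraries. Genes tested had a mean of at least 10 CPM over the 4 libraries, and a ratio needs over 3 UMIs in 1 of the 2 libraries. Cells were thinned to 2000 or 5000 UMIs, and phase was called with scanpy 1.11.5 on the Seurat 5.3.0 gene lists. TMM (edgeR 4.0.16) and DESeq2 1.42.0 size factors served as alternative scalings. Gene positions are from GENCODE on GRCh38. The ratio and thinning code was tested on simulated data.

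The 10 genes, the related lists and the markers were chosen with earlier results of these data known. All 10 genes are named, and from each related list the lowest and highest gene at each day, with LOX, TIMP3 and FN1 in any case. The depth ranges, removed barcodes, S or G2M cells and collagen quartiles were chosen as alternatives after the data were seen.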

Additional observations from a re-analysis of the deposited data

Results flagged for a closer look

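FBLN2 was higher in shAPC also among the barcodes that the mitochondrial limit removes, which the levels and ratios of FBLN2 given above leave out. At day 7 these held 39 FBLN2 UMIs with shAPC against 1 with shScr. The log2 ratio was 4.29, with a counting interval of 1.73 to 9.63, so the ratio itself is poorly fixed. At day 3 they held 7 and 3 UMIs, with a ratio of 0.99 (-1.14 to 3.58). The direction was that of the kept cells at both days.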

How the results depend on the processing

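No paired analysis was possible because the labels give no replicate numbers and each group is 1 library, and for the same reason no library could be left out. EFEMP1 stayed lower in shAPC under all 19 alternatives at each day. Its log2 ratio at day 3 was -1.69 with TMM, -1.67 with DESeq2 size factors and -0.62 in cells thinned to 2000 UMIs, where it rests on 20 and 41 UMIs. With all deposited barcodes and with a mitochondrial limit of 10% it was -2.62 and -2.64 at day 7. Among alternatives chosen after seeing the data, the values at day 3 and day 7 were -1.60 and -2.98 in removed barcodes, -1.52 and -1.96 in cells under 2000 UMIs, -1.09 and -3.68 from 2000 to under 10000 UMIs, -0.97 and -1.80 in S or G2M cells, -0.93 and -1.81 in collagen-low cells and -1.57 and -2.72 in collagen-high cells, and at day 3 it was -0.57 from 10000 to under 30000 UMIs. The count of genes at least 2-fold lower at day 3 was 4 with TMM and with DESeq2 size factors, and 2 with thinning and with a mean over cells of CPM. At day 7 it was 5 with all barcodes, with the 10% limit and in G1 cells. The share of all genes at least 2-fold lower at day 3 was 1.39% under TMM and 1.30% under DESeq2 size factors, and 2.21% with no minimum level (4.34% at day 7).

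Small ratios turned. The ratio of day 7 to day 3 in shAPC turned for EFEMP2 (0.16 with TMM and with DESeq2 size factors, 0.02 without mitochondrial and ribosomal protein genes) and FBLN5 (0.12 with both scalings), where the scaling itself moves every gene by 0.30 or 0.31. With a mean over cells, in which shallow cells weigh as much as deep ones, it turned for EFEMP1 (0.10), EFEMP2 (0.24), FBLN5 (0.17) and FBLN1 (0.40), and the ratio of shAPC to shScr at day 7 turned for FBLN2 (-0.15) and FBN1 (0.19). In groups of cells, EFEMP2 at day 7 was 0.08 under 2000 UMIs, 0.00 from 10000 to under 30000 UMIs and 0.05 in S or G2M cells. FBN1 at day 7 was 0.43 under 2000 UMIs, 0.00 in S or G2M cells and 0.17 in collagen-high cells. At day 3, FBLN1 was -0.76 from 2000 to under 10000 UMIs and FBLN5 0.08 in S or G2M cells. The causes of these turns were not tested. At 2000 UMIs per cell the shares of ELN, FBLN2, MFAP2 and MFAP5 rest on few cells, which limits any comparison of them.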
